A study of Homo sapiens with 6 samples.

Results

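The regions described here were ectopic CUT&RUN peaks on chr16, chr17, chr19, chr20 and chr22 of cells depleted of DNAJC9. A peak was taken when its midpoint lay on one of the 5 chromosomes, outside the centromeric window, and 5 Mb or more from both chromosome ends. The centromeric window was the 5-Mb stretch of each chromosome with the greatest length under peaks of siNeg CENP-A replicate 1, and the far end was the highest position in any list. The 3 lists of siDNAJC9 cells held 2174 such peaks of 27333 in all, of which 601 came from CENP-A replicate 1, 482 from CENP-A replicate 3 and 1091 from IgG. These chromosomes held 769, 624 and 1500 peaks of the 3 lists before the rule was applied, and the rule left out 118, 101 and 21 of them as centromeric and 50, 41 and 388 as lying near an end. The eligible sequence came to 284.0 Mb and was divided into 284 tiles of 1 Mb, leaving out tiles with under 0.5 Mb eligible.

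The cells were hTERT-RPE1-Tet-GFP-CENP-A, a single established line of telomerase-immortalized retinal pigment epithelial cells that also carries a GFP-tagged CENP-A transgene switched on by doxycycline (DOX). Cells were transfected with a negative control siRNA (siNeg) or an siRNA against DNAJC9 (siDNAJC9), and 1 µg/ml DOX was added to both for the last 48 h of 96 h, so the controls made extra CENP-A too. Each siRNA had 2 CENP-A libraries, numbered 1 and 3, and 1 library with nonspecific IgG, numbered 2. The lists give the position of each called peak and no read count, so the depth behind a peak and the level of DNAJC9 itself could not be read from them.

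CENP-A is the histone H3 variant that marks the centromere, where it is placed by its own chaperone HJURP. When it is in excess it can enter chromatin of the chromosome arms with the help of chaperones that normally serve H3–H4, and DNAJC9 is a heat shock co-chaperone that handles newly made H3–H4. In CUT&RUN an antibody tethers a nuclease to chromatin, and the IgG control shows where the nuclease cuts without a target, which is often in open chromatin, so tiles dense in IgG peaks are where a CENP-A call is hardest to set apart from background.

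The name gene-rich was checked on the RefSeq annotation of GRCh38.p14, which served only for counts of protein-coding genes per chromosome. Chr19 had 23.5 protein-coding genes per Mb and ranked first of 23 chromosomes, followed by chr17 with 13.9. Chr16 with 8.89, chr22 with 8.82 and chr20 with 8.13 ranked 4, 5 and 7, with chr11 and chr1 among them. Chr19 and chr17 thus stood clear of the rest, while the other three lay close to chr11 and chr1. The peaks lie on T2T-CHM13v2.0, for which no gene annotation was used here, so no peak was assigned to a gene and no sequence was read.

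DNAJC9 depletion was accompanied by many more CENP-A peaks on these chromosome arms. Replicates 1 and 3 held 601 and 482 peaks with siDNAJC9 and 35 and 6 with siNeg, and every siDNAJC9 value lay above every siNeg value. Means were 541.5 ± 84.1 (SD, n = 2) and 20.5 ± 20.5 (SD, n = 2), a 26.4-fold difference, with folds between single libraries from 13.8 to 100.2. Peaks covered 4234 and 3169 kb in the siDNAJC9 replicates and 189 and 36 kb in the siNeg ones, a 32.9-fold difference of the means that ranged from 16.8 to 117.6 between single libraries. By exact permutation of the library labels, two-sided, p was 0.33 for both measures, the smallest that 2 against 2 libraries allow. The IgG lists, with 1 library per siRNA and so no test, also held more peaks with siDNAJC9, at 1091 against 388. How much of the CENP-A difference goes with that difference in background was not tested.

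These chromosomes were the autosomes least covered by CENP-A in siDNAJC9 cells, and among those most covered by IgG. CENP-A peaks of replicates 1 and 3 covered 14.9 and 11.2 kb per eligible Mb of the 5 chromosomes, against 32.4 and 23.9 kb per Mb of the other 17 autosomes. IgG peaks of siDNAJC9 cells went the other way, with 23.3 kb per Mb on the 5 chromosomes and 11.3 on the other autosomes. In both CENP-A lists the 5 chromosomes took ranks 18 to 22 of 23 by coverage, with only chrX below them, and in the IgG list they took ranks 2 to 6. The length ratio of CENP-A to IgG was thus 0.640 in replicate 1 and 0.479 in replicate 3 here, and 2.86 and 2.11 on the other autosomes.

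**Figure D1:**
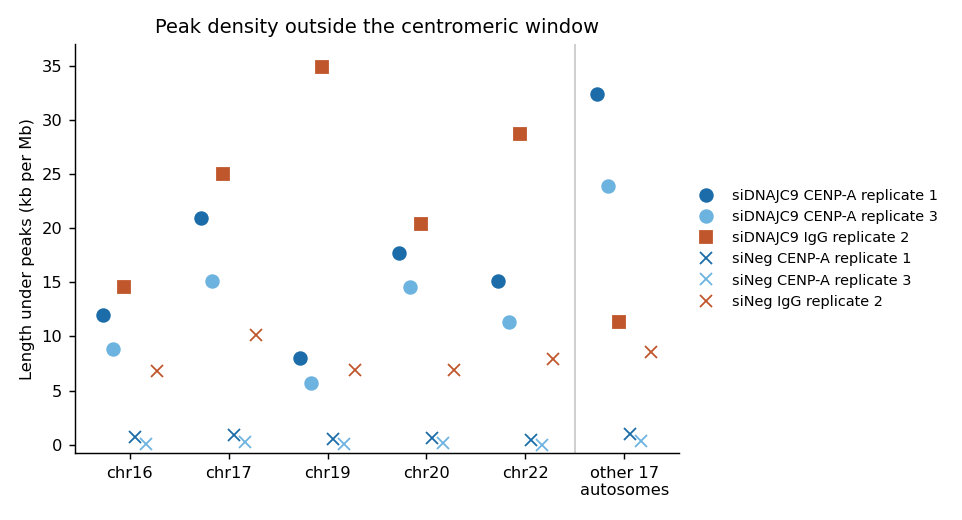
Length under peaks outside the centromeric windows, in kb per eligible Mb (y axis), on each of the 5 chromosomes and on the other 17 autosomes pooled (x axis), 1 point per library. The siDNAJC9 CENP-A points (filled circles) lie below the siDNAJC9 IgG square on all 5 chromosomes and above it on the other autosomes, while siNeg CENP-A (crosses near 0) stays under 1 kb per Mb on each of the 5.

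The 5 chromosomes differed among themselves. Chr17 was the most covered by CENP-A, with 20.9 and 15.1 kb per Mb in replicates 1 and 3, followed by chr20 with 17.7 and 14.6. Chr22 had 15.1 and 11.3 kb per Mb and chr16 had 12.0 and 8.81, and chr19 was the least covered with 7.97 and 5.66. The order of the 5 was the same in both replicates, but the values of neighbors in it overlapped between replicates for every pair except chr16 and chr19. IgG gave a different order, from chr19 with 34.9 kb per Mb through chr22 with 28.7, chr17 with 25 and chr20 with 20.4 to chr16 with 14.6. On chr19, the most gene-dense chromosome, the CENP-A length was therefore only 0.229 and 0.162 times the IgG length.

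The relative paucity of CENP-A peaks on these chromosomes was not shown to come with siDNAJC9. The density on the 5 chromosomes was 0.460 and 0.467 times that on the other 17 autosomes in the siDNAJC9 replicates, and 0.699 and 0.370 times in the siNeg replicates, which bracketed them. The difference of the mean log2 ratios, siDNAJC9 minus siNeg, was -0.134 (exact two-sided permutation test, p = 1.00). The siNeg ratios rest on 35 and 6 peaks, and without siNeg replicate 1 the difference was 0.324, of the opposite sign. For IgG the same ratio was 2.06 with siDNAJC9 and 0.908 with siNeg, so the siDNAJC9 IgG library stood out on these chromosomes and the siNeg one did not.

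CENP-A peaks were wider than IgG peaks. At least 7 kb was spanned by 49.9% of CENP-A peaks in replicate 1 and 38.4% in replicate 3, against 26.2% of IgG peaks of siDNAJC9 cells and 11.4% of the 35 siNeg replicate 1 peaks. The widest CENP-A peak was 18 kb in either replicate and the widest IgG peak 19 kb, so the lists differed in the share of wide peaks and hardly in the extremes. On the other 17 autosomes 55.1% and 48.4% of CENP-A peaks reached 7 kb.

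Along the chromosomes, CENP-A peaks were spread over most tiles. Replicate 1 had a peak in 187 of 284 tiles and replicate 3 in 190, and both had one in 157 tiles (55.3%). IgG peaks were found in 244 tiles (85.9%), so most tiles with CENP-A also held IgG, and 149 of the 157 tiles with both CENP-A replicates had an IgG peak somewhere in the same Mb. Only 8 tiles had both CENP-A replicates and no IgG, of which 4 were on chr16, and 39 tiles had IgG and no CENP-A, of which 12 were on chr19. No list of the 6 had a peak in 19 tiles, 14 of them on chr16. Tiles with both CENP-A replicates made up 71.0% of the tiles of chr17, 62.7% of chr20, 55.6% of chr22, 48.1% of chr16 and 36.2% of chr19.

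Both CENP-A lists favored the same tiles. Spearman's rho of length under peaks between replicates 1 and 3 was 0.742 over the 284 tiles, which are parts of the same 2 libraries, and ranged from 0.380 on chr19 to 0.792 on chr17. The 29 densest tiles of each replicate held 39.1% and 38.2% of its own length, and those of the other replicate still held 35.9% and 34.9%. IgG was more even, with 26.9% of its length in its 29 densest tiles.

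**Figure D2:**
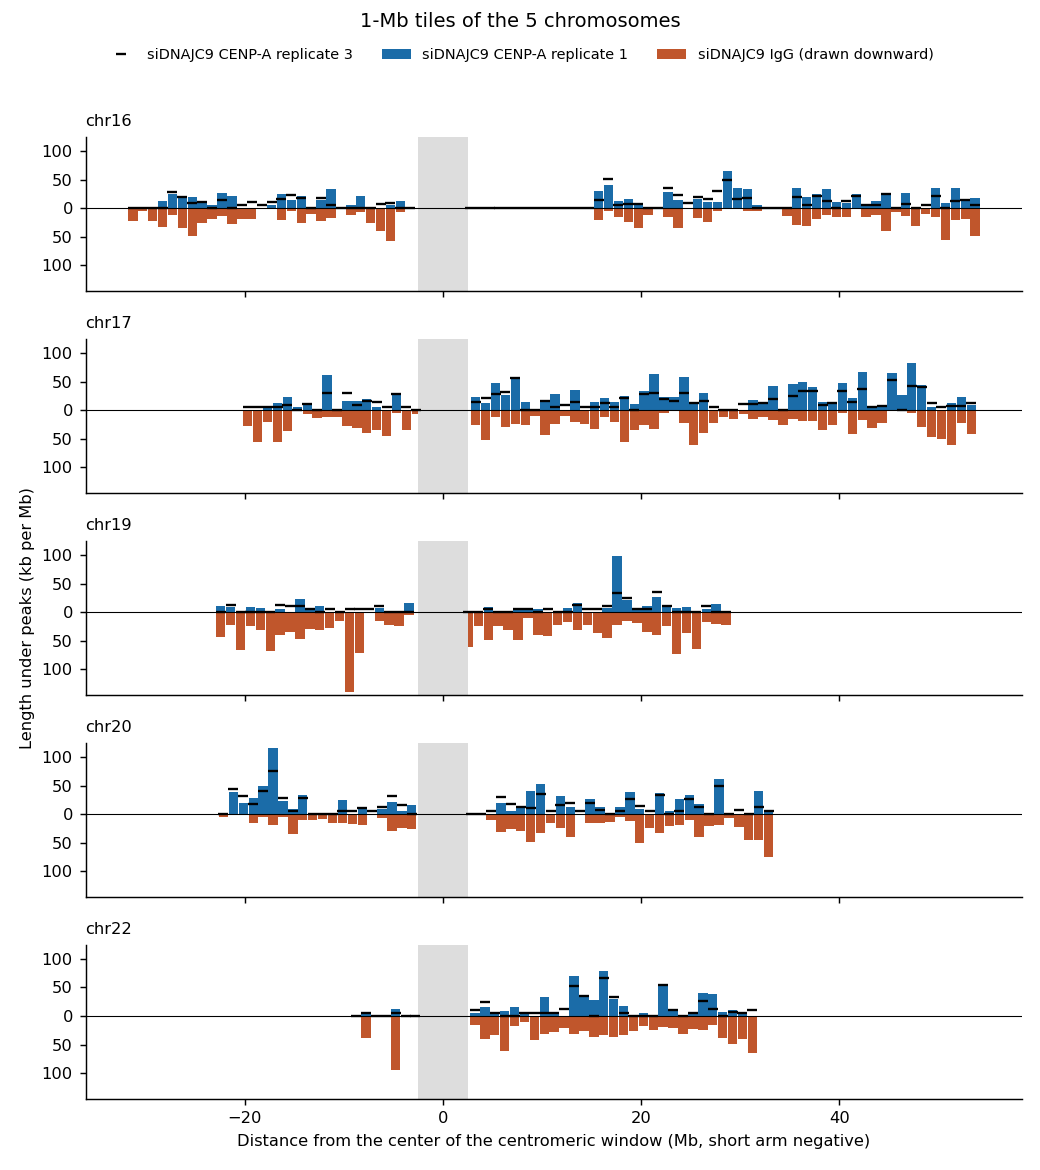
Length under siDNAJC9 peaks per 1-Mb tile, in kb per eligible Mb (y axis, CENP-A upward and IgG downward), against distance from the center of the centromeric window (x axis, Mb, window shaded). Bars upward are CENP-A replicate 1, black dashes replicate 3. The tallest CENP-A tile is on the short arm of chr20 (115 kb), the deepest IgG tile on the short arm of chr19 (139 kb), and 13 tiles beside the chr16 window are empty.

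The 10 tiles with the most CENP-A included 3 on chr17, 3 on chr22, 2 on chr20, 1 on chr19 and 1 on chr16. The first was the chr20 tile from 10 to 11 Mb, with 115 and 76 kb under 15 and 11 CENP-A peaks of replicates 1 and 3, against 19 kb of IgG and no siNeg CENP-A. The chr22 tile from 30 to 31 Mb followed with 78 and 66 kb, and 5 and 0 kb in the siNeg replicates. The chr19 tile from 45 to 46 Mb had 98 and 33 kb, the most uneven of the 10 between replicates, on a chromosome whose median tile had 6 and 5 kb per Mb. These tiles were picked for their siDNAJC9 CENP-A, so their distance from siNeg is no finding.

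The remaining tiles of the 10 lay on chr16, chr17, chr20 and chr22. On chr17, the tile from 72 to 73 Mb had 82 and 42 kb, that from 70 to 71 Mb 65 and 53 kb, and that from 32 to 33 Mb 57 and 57 kb. The chr22 tiles from 27 to 28 Mb and from 36 to 37 Mb had 70 and 52 kb and 53 and 54 kb. The chr16 tile from 65 to 66 Mb had 66 and 49 kb and the chr20 tile from 55 to 56 Mb 61 and 49 kb. Of the 10, the chr16 tile and the chr17 tile from 70 to 71 Mb had no IgG peak at all in siDNAJC9 cells, and only the chr22 tile from 30 to 31 Mb, with 33 kb, was among the densest 25% of tiles by IgG.

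Stretches without CENP-A were mostly short. The longest run of tiles without a CENP-A peak of siDNAJC9 cells was on chr16 from 39 to 52 Mb, next to the centromeric window on the long arm, and none of the 6 lists had a peak in its 13 tiles. This arm is known for a large block of satellite repeats beside the centromere, and whether the run follows its limits was not analysed here. The longest runs of the other chromosomes were 3 tiles on chr20 from 14 to 17 Mb and 2 tiles each on chr17 from 53 to 55 Mb, chr19 from 22 to 24 Mb and chr22 from 7 to 9 Mb, where the last 2 are the first of 3 runs of that length on chr19 and of 2 on chr22. IgG peaks were found in the runs of chr20, chr17 and chr19, with 35, 26 and 47 kb, but not in that of chr22.

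The longest runs in which every tile had both CENP-A replicates were chosen after their values were seen. They spanned 11 tiles on chr17 from 60 to 71 Mb and 8 tiles on chr20 from 6 to 14 Mb. The chr20 run averaged 39.6 and 34.0 kb of CENP-A per Mb with 11.2 of IgG, and the chr17 run 33.8 and 24.1 with 20.9 of IgG. Both carried more CENP-A than IgG. Runs on chr19 from 44 to 51 Mb and chr16 from 62 to 68 Mb had 25.9 and 18.1 kb, and 29.0 and 25 kb of CENP-A per Mb, against 28.7 and 8.50 of IgG. The chr22 run, 3 tiles from 17 to 20 Mb, had 9 and 13.7 kb of CENP-A per Mb and 30.3 of IgG. It was the first of several chr22 runs of that length, and the others began at 30 and 39 Mb. The 3 tiles from 30 Mb had 78 and 66, 30 and 34, and 18 and 6 kb of CENP-A. Their IgG was 33, 36 and 34 kb. Those from 39 Mb had 6 and 5, 41 and 27, and 39 and 13 kb of CENP-A, with 22, 24 and 15 kb of IgG.

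With the 5 chromosomes pooled, IgG was highest and CENP-A lowest in the class of tiles nearest the ends. The classes hold different mixes of the chromosomes and were not split by chromosome. Chr22, for one, is too short to hold tiles 30 Mb or more from an end. IgG covered 31.7 kb per Mb at 5 to 10 Mb from an end, 24.9 at 10 to 20 Mb, 20.9 at 20 to 30 Mb and 17.2 at 30 to 60 Mb. CENP-A was lowest in the outermost class, with 11.4 and 7.75 kb per Mb in replicates 1 and 3, and had 16.9 and 13, 15.8 and 10.8, and 13.9 and 11.7 kb per Mb in the others. The last class holds the 13 empty tiles of chr16, and over its 48 tiles with a peak in any list the values were 18.3 and 15.3 kb for CENP-A and 22.5 for IgG. At the 5-Mb limit of the rule, the last Mb inside it held 7 and 5 CENP-A and 53 IgG peaks over the 10 chromosome ends, and the next Mb outward, left out by the rule, held 18 and 11 CENP-A and 63 IgG peaks.

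The arms of a chromosome also differed. The long arm of chr17 had 24.2 and 16.8 kb of CENP-A per Mb in replicates 1 and 3, against 11.4 and 10.3 on its short arm, although IgG was alike on both at 24.5 and 26.0. On chr20 the short arm had the more CENP-A, 20.1 and 17.9 against 16.2 and 12.5 on the long arm, and the less IgG, 13.6 against 24.7. The short arm of chr22 had 2.51 and 1.48 kb per Mb over its 7 eligible tiles, the lowest of the 10 arms. Of these 7 tiles, 4 had no peak in any of the 6 lists, so the value rests on few tiles.

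The tile fit asked where CENP-A rose with siDNAJC9. In limma on log2(kb per Mb + 1) with Benjamini-Hochberg adjustment over 2704 tiles of all chromosomes, 132 of the 284 tiles here rose (46.5%), where 56.8% of all tiles did. The count came to 40 of 69 tiles on chr17, 27 of 51 on chr20, 18 of 36 on chr22, 32 of 81 on chr16 and 15 of 47 on chr19. The median log2 fold change was 2.74 over the 284 tiles, 3.81 over all tiles and 4.03 over those of the other 17 autosomes. Both siDNAJC9 values lay above both siNeg values in 153 tiles (53.9%), against 69.3% of all tiles. Without siNeg replicate 1 or replicate 3 the count of risen tiles was 61 or 49, and with peaks of at least 7 kb alone it was 79. Neighboring tiles share the same 4 libraries, so their tests are not independent.

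The largest log2 fold changes among the named tiles were those of chr20 from 10 to 11 Mb (6.56 ± 0.263, SE, limma adjusted p = 0.00171), chr22 from 27 to 28 Mb (5.94 ± 0.189, SE, limma adjusted p = 0.00120) and chr19 from 45 to 46 Mb (5.86 ± 0.671, SE, limma adjusted p = 0.0111). Both siNeg libraries were at 0 in each of them, so these fold changes depend on the pseudocount of 1 kb per Mb. With a pseudocount of 5 kb per Mb they were 4.30, 3.71 and 3.65, and with libraries scaled to the same total 3.86, 3.28 and 3.21, all 3 still passing. The chr19 tile had limma adjusted p = 0.0716 without siNeg replicate 1 and 0.0794 without siNeg replicate 3, with a range over its alternatives from 2.89e-18 to 0.0794, the lowest where 1 siDNAJC9 library was left and the spread came from the siNeg pair. The tiles from 30 to 31 Mb on chr22 and from 70 to 71 and from 72 to 73 Mb on chr17, with 5 to 7 kb in siNeg replicate 1, did not pass, at limma adjusted p = 0.0511, 0.0581 and 0.0926.

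A single tile fell, where 0.185% of all tiles did, and 6 fell without siNeg replicate 3. It was the chr17 tile from 53 to 54 Mb, which had 10 kb in each siNeg replicate and 0 kb in both siDNAJC9 replicates (log2 fold change -3.46 ± 0.183, SE, limma adjusted p = 0.00260). The length came from 1 peak, chr17:53976001-53986000, listed with the same limits in both siNeg lists and overlapped by no peak of the siDNAJC9 CENP-A or IgG lists or the siNeg IgG list. It was the only peak that the siNeg lists had in common here. The next lowest tiles, chr16 from 7 to 8 Mb and chr17 from 12 to 13 Mb, the latter level with 3 more tiles, had 6 and 5 kb in siNeg replicate 1 and 0 in the other CENP-A lists, and did not pass (limma adjusted p = 0.411 for both). Without siNeg replicate 3 both passed, at limma adjusted p = 0.0292, the lowest over their alternatives, where the highest was 1.00.

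Whether CENP-A avoided IgG-dense tiles depended on the chromosome. The IgG-dense tiles, the upper 25% by siDNAJC9 IgG, with 33 kb per Mb or more, came to 73 tiles and included 20 of 47 on chr19, 14 of 36 on chr22, 20 of 69 on chr17, 10 of 51 on chr20 and 9 of 81 on chr16. CENP-A covered 12.9 kb per Mb of them in replicate 1 and 10.6 in replicate 3, against 15.7 and 11.5 in the other 211 tiles. The ratios were 0.821 and 0.924, with a mean log2 ratio of -0.199 ± 0.120 (SD, n = 2), so pooled over the 5 chromosomes the difference was small. Tiles of 1 library are not replicates, so no test was run.

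With the densest 25% of tiles set within each chromosome, the ratios fell on both sides of 1. CENP-A was lower in the IgG-dense tiles of chr17 (0.523 and 0.707 in replicates 1 and 3), chr19 (0.634 and 0.598) and chr22 (0.402 and 0.534). It was higher in those of chr16 (1.12 and 1.08) and chr20 (1.29 and 1.23). The 59 other tiles of chr16 include 14 that were empty in every list. As they hold no CENP-A, leaving them out would raise the level of the other tiles and lower the chr16 ratio. The ratio without them was not computed, so a chr16 ratio above 1 is not shown apart from empty tiles. Medians over tiles did not all follow, at 7 against 6 kb per Mb (replicate 1) and 5 against 5 (replicate 3) for IgG-dense against other tiles of chr22, and 12.5 against 11 in replicate 3 of chr17, and there the ratio of totals rests on highly covered tiles outside the IgG-dense class. The ratio had the same direction in both replicates on each of the 5 chromosomes, and on the other 17 autosomes pooled the ratios were 1.01 and 1.03.

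**Figure D3:**
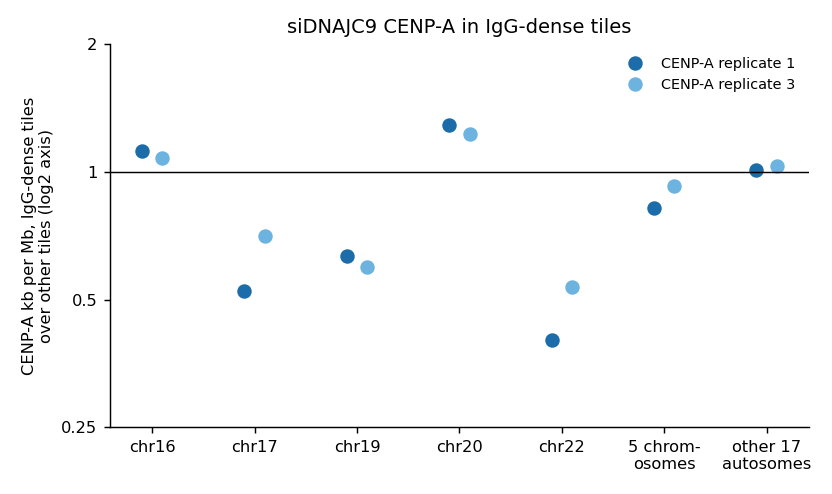
Density of siDNAJC9 CENP-A in the IgG-dense 25% of tiles divided by that in the other tiles (y axis, log2 scale, line at 1), for each chromosome, the 5 chromosomes pooled and the other 17 autosomes pooled (x axis), 1 point per replicate. Chr17, chr19 and chr22 lie below 1 and chr16 and chr20 above 1 in both replicates. The other tiles of chr16 include 14 that were empty in every list, and these raise its ratio.

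The pooled value moved with the chromosomes that entered. Without chr17 or chr19 the mean log2 ratio was 0.0569 or 0.0429, and without chr16 or chr20 it was -0.632 or -0.458. Leaving out the 19 tiles with no peak in any list gave -0.523, and ranking tiles by siNeg IgG gave 0.254. The direction of the pooled ratio therefore depended on these choices.

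Pooled over the 5 chromosomes, CENP-A peaks were present in IgG-dense tiles at least as often as in the others, which include the 19 tiles empty in every list. A CENP-A peak of replicate 1 was found in 76.7% of IgG-dense tiles and 62.1% of the others, and of replicate 3 in 80.8% and 62.1%. Chr19 went the other way, with 50% against 60% in replicate 1 and 50% against 54.3% in replicate 3, for tiles ranked within the chromosome. Median lengths were alike, at 9 kb per Mb in both kinds of tile for replicate 1 and 7 and 6 for replicate 3. Of the 73 tiles densest in CENP-A, 13 (17.8%) were among the 73 densest in IgG, where 25.7% of all 284 tiles were. The siNeg CENP-A lists had 0.344 and 0.0689 kb per Mb in the IgG-dense tiles and 0.782 and 0.148 in the others.

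At the far end of the IgG range CENP-A was scarce. The 10 tiles with the most IgG held 62 to 139 kb of it, and CENP-A there ran from 0 to 12 kb in replicate 1 and from 0 to 10 kb in replicate 3. The first, chr19 from 18 to 19 Mb, had 139 kb under 20 IgG peaks and 0 and 6 kb of CENP-A. The chr22 tile from 9 to 10 Mb had 94 kb of IgG with 12 and 5 kb of CENP-A, and the chr20 tile from 60 to 61 Mb 76 kb with 7 and 6 kb. None of the 10 was in the upper 25% by CENP-A. Most of the 10 were on chr19, the least covered of the 5 chromosomes, where the median tile had 6 and 5 kb of CENP-A per Mb in replicates 1 and 3.

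The other 7 of these tiles were on chr19 and chr22. On chr19 they began at 51, 19, 10, 7 and 53 Mb with 74, 72, 68, 66 and 65 kb of IgG, and those from 10, 7 and 53 Mb had no CENP-A peak of either replicate. On chr22 they began at 45 and 20 Mb with 64 and 62 kb of IgG and 10 or 9 kb of CENP-A in 1 replicate and none in the other. Conversely, the 10 tiles with the most CENP-A had 0 to 33 kb of IgG, with a median of 20 kb, against 21.0 over all 284 tiles. The tiles with the most CENP-A thus had IgG on both sides of the median.

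**Figure D4:**
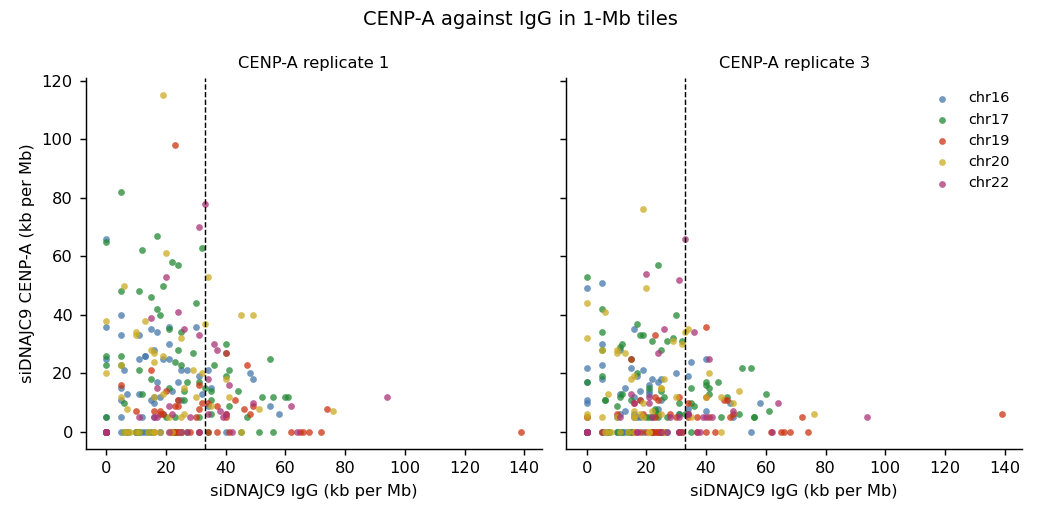
Length under siDNAJC9 CENP-A peaks (y axis) against that under siDNAJC9 IgG peaks (x axis) in each of the 284 tiles, both in kb per Mb, for CENP-A replicates 1 and 3, colored by chromosome; the dashed line is the IgG-dense bound of 33 kb per Mb. Points spread along both axes, and to the right of 60 kb of IgG the highest CENP-A value is 12 kb per Mb.

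In classes of IgG, CENP-A was lowest where IgG was absent, with tiles empty in every list counted in. The 40 tiles without IgG had 7.85 and 7.02 kb of CENP-A per Mb in replicates 1 and 3, but 19 of them had no peak in any list. The other classes hold no such tile, so leaving them out would raise the level of this class alone. The level over the rest of this class was not computed, so it is not shown to be the lowest without the empty tiles. CENP-A came to 17.4 and 12.5 kb per Mb in the 59 tiles with 1 to 15 kb of IgG, to 17.3 and 12.7 in the 98 tiles with 16 to 30 kb, and to 14.0 and 10.6 in the 87 tiles above that. Spearman's rho between CENP-A and IgG over tiles was 0.11 and 0.115 for replicates 1 and 3, and -0.0264 and -0.0215 over the 265 tiles with a peak in any list. These points come from the same 3 libraries, and the values are far below the 0.742 between the CENP-A replicates.

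Pooled over the 5 chromosomes, risen tiles were not fewer among IgG-dense ones, but on chr19 their share was slightly lower. In the limma fit 44 of the 73 IgG-dense tiles rose (60.3%) and 88 of the other 211 (41.7%), beside 56.8% of all tiles. The other tiles include the 19 that were empty in every list and could not rise. As 5 kb in each siDNAJC9 replicate could be enough to pass, these shares follow the presence of peaks and need not follow their length. By chromosome the IgG-dense tiles that rose numbered 14 of 20 on chr17, 9 of 10 on chr20, 8 of 14 on chr22, 7 of 9 on chr16 and 6 of 20 on chr19. Of the other tiles, 26 of 49 rose on chr17, 18 of 41 on chr20, 10 of 22 on chr22, 25 of 72 on chr16 and 9 of 27 on chr19.

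At the level of bases, a larger share of CENP-A than of the eligible sequence lay under IgG peaks, though both shares were small. Of the CENP-A length, 4.49% in replicate 1 and 4.86% in replicate 3 lay under siDNAJC9 IgG peaks, which covered 2.33% of the eligible sequence. These shares were 1.93 and 2.09 times the coverage, and on the other 17 autosomes 2.34 and 2.54 times. By chromosome the share ran from 3.49% on chr19 to 5.68% on chr22 in replicate 1, and from 4.06% on chr16 to 7.20% on chr19 in replicate 3. For replicate 1 on chr19 it equaled the IgG coverage of that chromosome, 3.49%. With peaks of at least 7 kb alone in all lists the mean share was 1.73%, against 4.67% ± 0.263 (SD, n = 2). Only 286 of the 1091 IgG peaks are that wide, so less sequence lies under them. Their coverage was not computed, so the 2 shares cannot be set side by side. The names of the lists point to 1 further IgG library as the control of all 3, which could place or remove peaks in each alike, and its part in the overlap was not tested.

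In numbers of peaks, 41 of 601 (6.82%) in replicate 1 and 35 of 482 (7.26%) in replicate 3 overlapped an IgG peak by at least 1 bp. The median distance from a CENP-A peak to the nearest IgG peak was 91.0 and 93.5 kb. Among the 135 and 121 CENP-A peaks with their midpoint in an IgG-dense tile it was 43 and 44 kb, and 11.9% and 14% of them touched or overlapped an IgG peak. Over all CENP-A peaks of the other 17 autosomes, where IgG peaks are sparser, the median was 198.0 and 200 kb.

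CENP-A peaks recurred between replicates far more than they met IgG. In replicate 1, 208 of 601 peaks (34.6%, 95% Wilson interval 30.9 to 38.5) overlapped a peak of replicate 3, and 210 of 482 (43.6%, 39.2 to 48.0) did so the other way. On the other 17 autosomes, where peaks were denser, the shares were 43.0% and 55.2%. Intervals cover counting error only. The share grew with width, from 17% and 24.1% of peaks of 5 kb, the narrowest in the lists, to 69.6% and 92.6% of those of 10 kb or more.

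**Figure D5:**
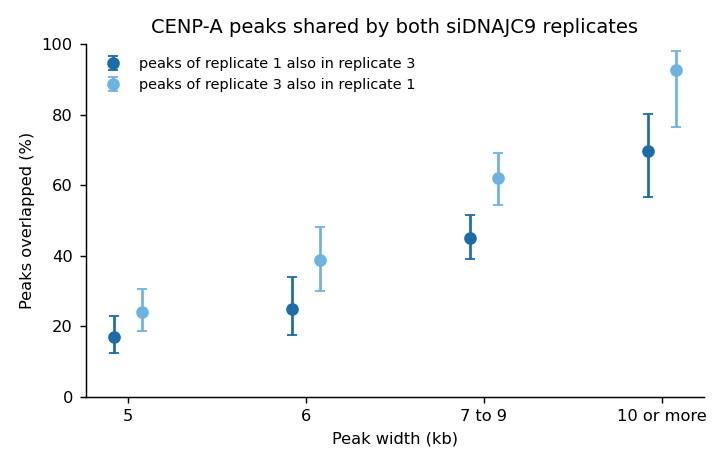
Percent of siDNAJC9 CENP-A peaks of each replicate on the 5 chromosomes that share at least 1 bp with a peak of the other replicate (y axis), by peak width in kb (x axis), with 95% Wilson intervals. Both series rise with width, replicate 1 from 17% to 69.6% and replicate 3 from 24.1% to 92.6%.

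Merging overlapping peaks of both replicates gave 208 common regions with a median length of 9 kb, 1970 kb in all. They numbered 73 on chr17, 51 on chr20, 49 on chr16, 23 on chr22 and 12 on chr19. An IgG peak of siDNAJC9 cells touched 16 of them (7.69%) and a siNeg CENP-A peak 4. The share touched by IgG was close to that of all CENP-A peaks, 6.82% and 7.26% in replicates 1 and 3.

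The 5 longest common regions without an IgG peak, all on chr20 and chr17, had no peak of either siNeg CENP-A list. They were chr20:42732001-42754000, made of 14 kb of peak in each replicate, chr17:49096001-49115000 with 15 and 14 kb, and chr20:49083001-49102000 with 18 and 16 kb. The others were chr17:72996001-73014000 with 9 and 18 kb and chr17:30861001-30878000 with 16 and 8 kb, the last of them 1 of 3 such regions of 17 kb. One further region as long as the first, chr20:33427001-33449000, with 15 and 20 kb, was touched by an IgG peak.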

How the data were processed

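CUT&RUN peaks were taken from 6 lists, 1 per library. The authors trimmed reads with Cutadapt, aligned them with bowtie2 to T2T-CHM13v2.0 and to a spike-in genome, removed duplicates with Picard and called broad peaks in each library with GoPeaks in CARLISLE, with spike-in normalization. The names of the deposited lists point to a further IgG library of each siRNA as the control of its 3 lists, which the methods do not state. The notes that the submitters gave to GEO name bcl2fastq and Bowtie, with T2T-CHM13 as the genome. The deposited lists hold a chromosome, start and end in whole kb, and no score, p-value or count, so the depth is unknown and a stricter threshold could not be applied. Normalization, control and threshold all decide whether a region is listed.

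Groups were taken from the sample labels. Lengths under peaks were summed per chromosome and per 1-Mb tile and clipped to the eligible sequence. Library totals were compared by exact two-sided permutation tests, and log2(kb per Mb + 1) of the tiles of all chromosomes by limma 3.58.1 (R 4.3.3), with Benjamini-Hochberg adjustment and a threshold of 0.05. The fit was tested on simulated data, after which a trend in the prior variance was chosen. Shares of peaks carry 95% Wilson intervals, and scipy 1.17.1, numpy 2.4.6, pandas 2.3.3 and Python 3.11.15 were used. The repeats are described as biological. The permutation p-values rest on the spread between these libraries alone. The limma p-values also rest on a variance shared over all tiles, many of which had 0 kb in both siNeg CENP-A lists. On the 5 chromosomes, siNeg CENP-A replicates 1 and 3 had a peak in only 32 and 6 of 284 tiles.

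The chromosomes, tiles and rules were chosen with earlier results of these data known. Tiles and regions were named by rule: the 10 tiles with the most CENP-A and the 10 with the most IgG, the longest run without CENP-A per chromosome, the 3 largest and 3 smallest fold changes, and the 5 longest common regions without IgG. Alternatives varied the windows, ends, peak width, IgG overlap, tile size, pseudocount, scaling, IgG class, chromosomes and replicates. The DESeq2 test of the authors needs read counts and was not repeated. Genes, promoters and sequence on T2T-CHM13v2.0 were not analysed here.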

Additional observations from a re-analysis of the deposited data

How the results depend on the processing

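The log2 ratio of CENP-A peak numbers, 4.72, and that of lengths, 5.04, stayed positive under all 9 alternatives of each, from 3.95 to 6.60 and from 4.29 to 6.68. The difference in density between the 5 chromosomes and the other autosomes, -0.134, was 0.0767 with peaks of at least 7 kb and ran from -0.592 to 0.324 without 1 library. The count of 132 risen tiles was 79 with peaks of at least 7 kb and ran from 49 to 165 without 1 library, the library left alone being assumed to vary like the others. The other alternatives for this count stayed within 1.5 times of it, but some had other totals of tiles. The share of risen tiles, 46.5% of 284, was 62.3% of 146 with 2-Mb tiles. It was 60.6% of 226 without tiles that had no CENP-A peak, 49.6% of 234 with wider windows and 44.0% of 334 with no minimum distance from the ends. Scaling libraries to the same total lowered the median log2 fold change of all tiles from 3.81 to 1.31, left 115 risen tiles, and turned the chr20 tile from 55 to 56 Mb from 3.21 to -2.01. Of 155 values of the named tiles under alternatives, 131 kept direction and side of the threshold, 5 were 0, 15 passed it newly and 3 no longer did.

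The mean log2 ratio of CENP-A in IgG-dense tiles, -0.199, was -0.434 with wider windows, -0.670 with no minimum distance from the ends and -0.746 for the upper 10% of tiles. It was 0.901 for any tile with an IgG peak against none, 0.254 with tiles ranked by siNeg IgG, and -0.632, 0.0569, 0.0429 and -0.458 without chr16, chr17, chr19 and chr20. Leaving out tiles with no peak in any list, an alternative chosen after seeing the data, gave -0.523. Without 1 CENP-A replicate, likewise added, it ran from -0.284 to -0.114. The cause of these shifts was not tested. The CENP-A length under IgG peaks, 4.67%, was 4.07% with wider windows, 4.98% with no minimum distance from the ends, 1.73% with peaks of at least 7 kb in all lists and 1.26% under siNeg IgG peaks, the last 2 of which cover less sequence. The replicate overlap, 39.1% as the mean of both directions, ran from 33.8% with 50% reciprocal overlap to 41.9% with peaks of at least 7 kb over its 5 alternatives.

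CENP-A replicates share the numbers 1 and 3 between siRNAs, but the difference of replicate 1 from replicate 3 had a correlation of 0.000202 between siRNAs over 2704 tiles, which siNeg lists with few peaks can hardly show either way, and nothing in the labels ties equal numbers to 1 day or batch, so they were not treated as pairs. With a replicate block 102 tiles rose, and the paired log2 ratios were 5.21 for numbers, 5.47 for lengths and -0.134 for the density difference. The lists limit depth to called or not called, and 1 IgG library per siRNA leaves its own error unknown.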

Other observations

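The 388 siNeg IgG peaks on the 5 chromosomes seldom overlapped the 1091 siDNAJC9 IgG peaks. An overlap was found for 17 of the 388 (4.38%), and on the other 17 autosomes for 79 of 3414 (2.31%). The siDNAJC9 IgG peaks covered 2.33% of the eligible sequence of the 5 chromosomes and 1.13% of that of the other 17 autosomes. A peak some kb wide meets them more often than a single base does. The overlap that random placement would give was not computed, so these shares are not read as below or above it. Spearman's rho of the IgG lengths over the 284 tiles was 0.0593, from 1 library each. On chr19 IgG covered 34.9 kb per Mb with siDNAJC9 and 6.92 with siNeg, and on chr16 14.6 and 6.78. The siNeg IgG list was nearly even among the 5 chromosomes, between 6.78 and 10.1 kb per Mb.

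Of the 35 siNeg CENP-A peaks of replicate 1, 5 overlapped a siDNAJC9 peak of replicate 1 and 3 one of replicate 3. Of the 6 siNeg peaks of replicate 3, 2 overlapped peaks of both siDNAJC9 replicates, chr16:14223001-14228000 and chr20:55477001-55482000, which were named after their values were seen.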
